A study of Mus musculus with 15 samples.

Results

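Cholesterol and fatty acids are built from acetyl-CoA by a set of enzymes whose genes are largely driven by the same transcription factors. The results below concern 35 such genes, chosen by symbol, of 24451 gene rows in the count table of a mouse embryonic stem cell series: the enzymes of the cholesterol pathway, those of fatty acid synthesis and desaturation, the suppliers of their acetyl-CoA, and the proteins that switch the pathway on and off. All 35 were found, and all 35 were among the 14600 genes tested. Cells of the ES-R1 line, at passages below 20 per the labels, were grown without serum, in a medium supplemented with N2 and B27, and taken through 4 days of differentiation. The libraries fall into 5 groups of 3: an siRNA against Vprbp with Activin A at 25 ng/ml, a control siRNA with Activin A at 25 ng/ml, the control siRNA with SB, the Vprbp siRNA alone and the control siRNA alone. SB is a kinase inhibitor that the sample titles call SB431524 while the text on the series has SB431542, and no dose for it stands in either. SB was combined with the control siRNA and not with the Vprbp siRNA, and all 5 groups carried an siRNA.

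In mammalian cells the sterol regulatory element binding proteins, made by Srebf1 and Srebf2, are held in the endoplasmic reticulum by a complex of Scap with an Insig protein when sterols are plentiful. When sterols run low Scap carries them to the Golgi, where proteases free the part that enters the nucleus and binds promoters of lipid synthesis genes. Insig1 is itself a target, which closes a feedback loop. Activin A signals through a type I receptor kinase to Smad2 and Smad3, SB431542 inhibits that kinase, and Vprbp, also called Dcaf1, brings substrates to the ubiquitin ligase CRL4.

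Each library held 11.1 M to 15.5 M fragments assigned to genes (M, mega), so a count of 0 allows a level of up to 0.193 to 0.269 CPM (counts per M assigned, on TMM-scaled library sizes). Nothing in the labels says whether replicates came from separate cultures, so every p-value measures the spread between these libraries, which may be technical. Vprbp RNA was at 122 ± 8.91 CPM with Vprbp siRNA, against 171 ± 3.59 CPM with control siRNA, and at 138 ± 9.23 CPM with Vprbp siRNA and Activin, against 179 ± 4.41 CPM with control siRNA and Activin (SD, n = 3 each), so the knockdown was partial. The pluripotency genes Pou5f1 and Sox2 were read in every library, at 332 to 825 CPM and 611 to 966 CPM. On the principal components 3 libraries lay apart from their groups: replicate 1 of Vprbp siRNA with Activin, replicate 3 of Vprbp siRNA and replicate 3 of control siRNA. Results that change without them are given with and without them.

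Promoter windows from RefSeq (GRCm38.p6), each running from 250 bases before to 50 bases after a start site, matched 28 of the 35 genes with 37 windows, since some genes have several starts. One form of the sterol regulatory element, TCACNCCAC, was searched on both strands and stood in 1 of 37 windows, that of Hmgcs1, and in 1.24% of all 32851 windows. The palindromic E-box CACGTG stood in 6 of 37 windows (16.2%), against 7.15% of all windows. These belong to 5 of the 28 genes, since overlapping windows of Scap hold the same site, which is counted in each. The box CCAAT, the core of the motif bound by NF-Y, stood in 23 of 37 windows (62.2%) on either strand, against 37.4% of all windows. Motifs were counted separately, whether or not they overlapped, and the single TCACNCCAC match overlapped no other motif. A match describes letters only. The windows of 3 genes whose values are described below are shown: Hmgcs1 (chr13:119690101-119690400, plus strand), the enzyme gene that holds the element, Insig1 (chr5:28071162-28071461, plus strand), the feedback gene, which fell under SB, and Sc5d (chr9:42264251-42264550, minus strand), an enzyme gene that rose under SB. Capitals mark matches to any of the 3 motifs on either strand, CCAAT reading ATTGG on the opposite one.
Hmgcs1: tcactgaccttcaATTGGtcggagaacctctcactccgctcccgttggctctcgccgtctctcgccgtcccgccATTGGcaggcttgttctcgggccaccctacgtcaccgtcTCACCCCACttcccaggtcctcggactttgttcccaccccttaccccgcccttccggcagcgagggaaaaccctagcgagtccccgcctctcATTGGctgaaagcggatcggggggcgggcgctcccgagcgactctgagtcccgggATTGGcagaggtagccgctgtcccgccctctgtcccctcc
Insig1: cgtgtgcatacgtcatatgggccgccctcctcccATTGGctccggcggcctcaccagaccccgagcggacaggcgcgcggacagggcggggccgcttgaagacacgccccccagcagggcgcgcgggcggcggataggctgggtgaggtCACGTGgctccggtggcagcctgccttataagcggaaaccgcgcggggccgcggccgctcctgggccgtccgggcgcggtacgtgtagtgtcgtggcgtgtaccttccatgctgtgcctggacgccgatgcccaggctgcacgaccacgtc
Sc5d: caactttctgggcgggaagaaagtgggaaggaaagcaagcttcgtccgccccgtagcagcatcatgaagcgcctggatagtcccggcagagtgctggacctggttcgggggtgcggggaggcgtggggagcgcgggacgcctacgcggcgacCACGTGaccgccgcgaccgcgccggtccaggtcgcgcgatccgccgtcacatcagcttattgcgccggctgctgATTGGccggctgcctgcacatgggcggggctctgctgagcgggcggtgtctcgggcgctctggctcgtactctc

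Levels can be set beside each other between genes once they are divided by length, here as fragments per kilobase of exon per M assigned. In untreated control siRNA cells the highest of the 35 was Scd2, a stearoyl-CoA desaturase that puts the double bond into oleate, at 216 ± 37.0 (SD, n = 3). Acly, which cleaves citrate to acetyl-CoA, followed at 146 ± 2.13, the mevalonate pathway entry enzyme Hmgcs1 at 126 ± 6.95, the regulator Srebf2 at 107 ± 19.7 and the fatty acid synthase Fasn at 97.5 ± 7.41. The ranges of Hmgcs1 and Srebf2 met, as did those of Srebf2 and Fasn. Srebf1 stood at 29.6 ± 1.26 on this scale, below Srebf2 in every control library, and Scd1, the second desaturase, at 84.5 ± 10.1, below Scd2 in every one. The lowest were Acss2, which makes acetyl-CoA from acetate, at 3.90 ± 0.217, and Idi1, an isomerase of the isoprenoid units, at 1.496 ± 0.133. The length joins the exons of all annotated transcripts of a gene, 10.2 kb for Acss2, and can exceed that of the transcripts made. Before division Acss2 had 38.9, 37.8 and 42.1 CPM in these libraries, above Me1 at 19.3, 17.2 and 17.3 CPM. The place of Acss2 thus depends on the length used, while Idi1 was also lowest in CPM. Some of these levels are uncertain because other genes share sequence with the gene: of all 50-base windows in its transcripts, 39.1% for Acat2, 30.4% for Acaca, 26.2% for Fdps, 22.9% for Me1, 17.7% for Idi1, 9.87% for Tm7sf2, 9.38% for Fdft1, 4.56% for Scd1 and 3.97% for Scd2 occur in another gene, and at most 3.98% for the other members.

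Within a group, most of the 35 genes followed the library. In the SB group replicate 1 had the highest CPM for 30 of 35 genes and replicate 2 the lowest for 31. Over all 14124 genes compared in this way, SB replicate 1 was highest for 33.6% and SB replicate 2 lowest for 31.8%. Control siRNA replicate 3 was highest for 29 of 35 genes, against 39.6% of all genes, and Vprbp siRNA replicate 2 was lowest for 29 of 35, against 32.4% of all genes. The summed CPM of the 35 genes was 9068, 7235 and 8194 in the SB libraries and 7773, 7818 and 9239.7 in the untreated control siRNA libraries. The median coefficient of variation of the 35 genes was 11.7% in the SB group, 10.3% in the control siRNA group and 3.99% in the control siRNA group with Activin. The cause of this library pattern was not tested.

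**Figure D1:**
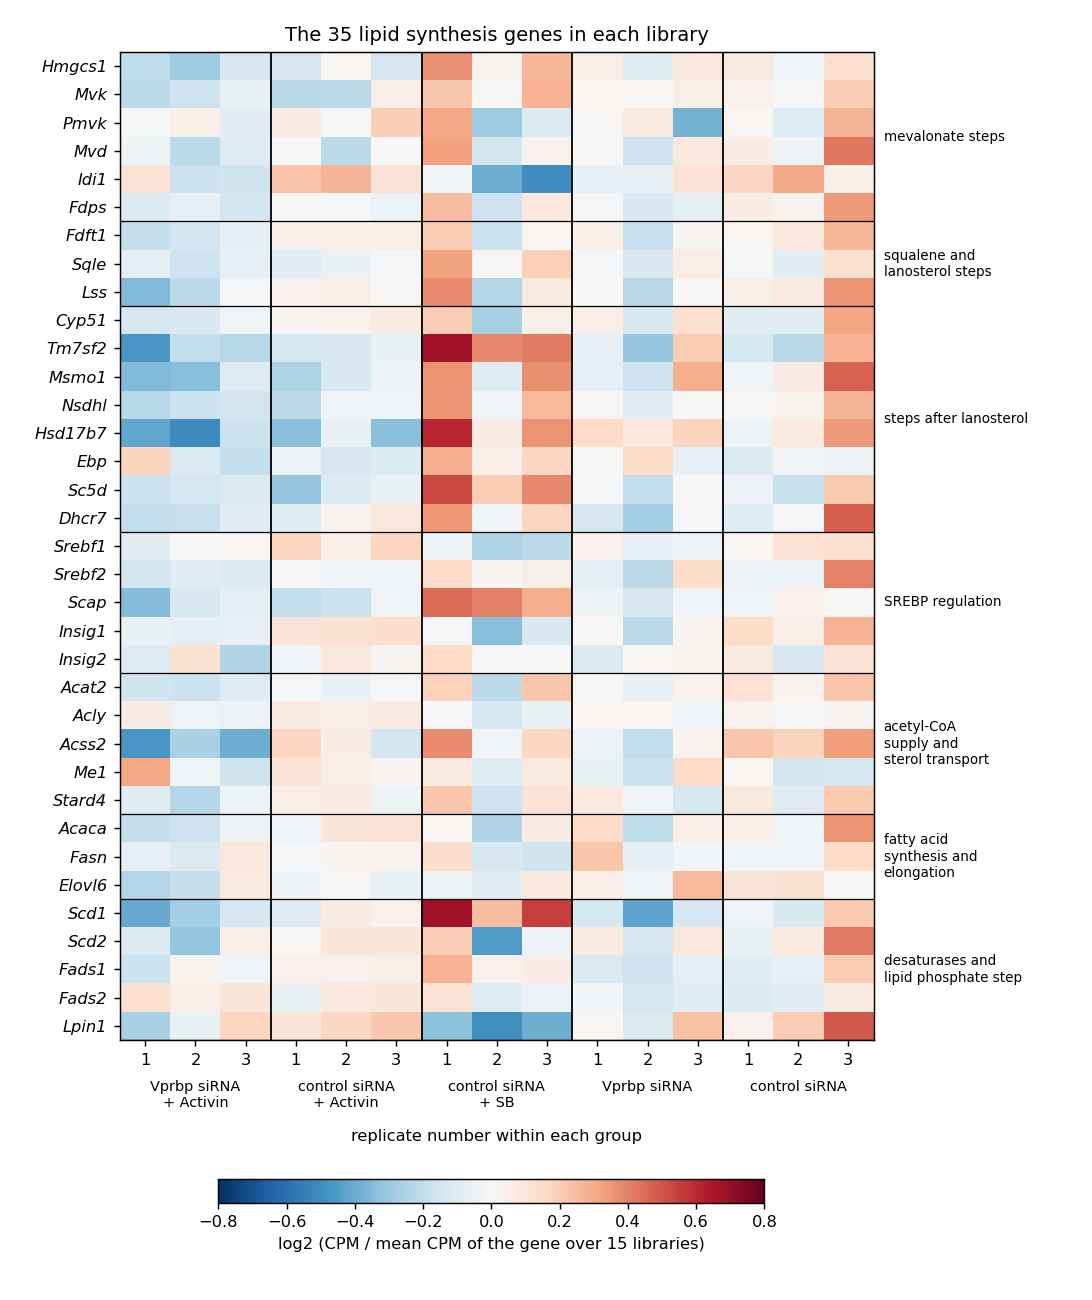
Each row is 1 of the 35 genes, ordered by role, and each column 1 library, ordered by group. Colour gives log2 of the gene's CPM over its mean CPM in all 15 libraries, red for higher and blue for lower. SB replicate 1 and control siRNA replicate 3 are red down most of their columns, and Lpin1 is blue in all 3 SB libraries while Scap is red in all 3.

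SB, compared with untreated control siRNA cells, split the 35 genes rather than moving them one way. The genes that rose were the desaturase Scd1, the SREBP escort Scap, the late cholesterol enzyme Sc5d and the sterol reductase Tm7sf2. The phosphatidate phosphatase Lpin1, the feedback gene Insig1 and the transcription factor gene Srebf1 fell. The 4 genes that rose are 11.4% of the 35, and the 3 that fell are 8.57%. Of all 14600 genes, 22.6% were called, 11.2% higher and 11.3% lower, so the share of called genes was near that of the transcriptome. The median log2 fold change of the 35 genes was -0.04, beside -0.0048 over all genes tested, with 16 above 0 and 19 below. The SB libraries lay above all untreated ones for 4 genes and below all for 4, against 18.8% and 18.4% of all genes.

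Among the proteins that regulate the pathway, Scap and Insig1 moved in opposite directions. Scap (chromosome 9, 110333288 to 110384949) had 103, 100.2 and 92.6 CPM in SB libraries, against 74.2, 77.7 and 76.0 CPM in untreated control siRNA libraries. Every SB library lay above every control library, and the log2 fold change was 0.38 ± 0.07 (SE, edgeR adjusted p = 0.0009), 29.9% higher. Insig1 (chromosome 5, 28071412 to 28078662) had 98.7, 78.9 and 91.6 CPM in SB libraries, against 111, 104 and 121 CPM in control libraries. All SB values lay below all control values, with SB replicate 2 the lowest, and Insig1 fell by 19.7%, a log2 fold change of -0.32 ± 0.08 (SE, edgeR adjusted p = 0.0068). Srebf1 (chromosome 11, 60199084 to 60224186), whose products favour fatty acid genes, had 153, 133 and 136 CPM in SB libraries, against 159, 170.2 and 171 CPM in control libraries, again without overlap. It fell by 15.8%, a log2 fold change of -0.25 ± 0.06 (SE, edgeR adjusted p = 0.008). Srebf2 (chromosome 15, 82147269 to 82205379), whose product favours cholesterol genes, had 785, 718 and 729 CPM in SB libraries, against 685, 686 and 931 CPM in control libraries. Those ranges overlapped, control replicate 3 was the highest, and the log2 fold change of -0.04 was not called. Insig2, the second Insig gene, was at 23.3 ± 1.49 CPM with SB and 22.8 ± 1.91 CPM without, and was not called. Without SB replicate 2 the calls of Insig1 and Srebf1 were lost (adjusted p = 0.061 and 0.055), while Scap kept its call in all 14 alternatives.

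In the cholesterol pathway itself 2 genes were called, Sc5d and Tm7sf2. Both are among the 8 enzymes after lanosterol, of which none fell and 7 had a log2 fold change above 0, and these were not tested against the earlier steps. Sc5d (chromosome 9, 42251592 to 42264300), a sterol desaturase, had 52.5, 42.0 and 47.5 CPM in SB libraries, against 35.3, 32.2 and 42.1 CPM in control libraries. The lowest SB library stood just under the highest control library, and the log2 fold change was 0.37 ± 0.10 (SE, edgeR adjusted p = 0.011). Tm7sf2 (chromosome 19, 6062821 to 6067850), the reductase that acts after Cyp51, had 31.7, 26.0 and 26.5 CPM in SB libraries, against 18.04, 17.02 and 24.0 CPM in control libraries. No SB value met a control value, and the log2 fold change was 0.51 ± 0.14 (SE, edgeR adjusted p = 0.0093), although part of its sequence is shared with the neighbouring gene Vps51 and strand use is not known. The call of Sc5d was lost without SB replicate 1 or control replicate 2, and that of Tm7sf2 without SB replicate 1 or control replicate 1 or 2 (largest adjusted p 0.084 and 0.067). Hsd17b7 (chromosome 1, 169949535 to 169969242), a reductase in the removal of the sterol methyl groups, had 45.0, 30.7 and 37.8 CPM in SB libraries, against 28.6, 31.1 and 37.3 CPM in control libraries, and was not called. None of the 6 mevalonate genes and none of the 3 squalene and lanosterol genes passed the edgeR test or DESeq2, with 2 and 1 of them at an unadjusted p under 0.05 in edgeR. Hmgcs1 (chromosome 13, 119690351 to 119708260) had 715, 565 and 667 CPM in SB libraries, against 584, 543 and 606 CPM in control libraries. Its ranges overlapped and its log2 fold change was 0.17 ± 0.08 (SE, edgeR adjusted p = 0.13). The squalene epoxidase Sqle had 231, 187 and 211 CPM in SB libraries, against 183, 174 and 202 CPM in control libraries, with a log2 fold change of 0.17 ± 0.07 (SE, edgeR adjusted p = 0.11).

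On the fatty acid side the desaturases parted and the core enzymes were not called. Scd1 (chromosome 19, 44394450 to 44407709) had 647, 481 and 595 CPM in SB libraries, against 398, 373 and 469 CPM in control libraries. All 3 SB values lay above all 3 control values, and the gene rose by 39.0%, a log2 fold change of 0.47 ± 0.11 (SE, edgeR adjusted p = 0.0061). Its neighbour Scd2 (chromosome 19, 44293676 to 44306864) had 1211, 772 and 1023 CPM in SB libraries, against 1019.95, 1112 and 1407 CPM in control libraries. The Scd2 ranges overlapped widely and its log2 fold change of -0.24 ± 0.16 was not called. Lpin1 (chromosome 12, 16535669 to 16653903), which makes diacylglycerol from phosphatidate, had 60.1, 53.7 and 57.6 CPM in SB libraries, against 77.1, 87.0 and 106 CPM in control libraries. It fell by 36.6%, the largest fall of the 35 in this comparison, with a log2 fold change of -0.66 ± 0.12 (SE, edgeR adjusted p = 0.00056). Scd1 and Lpin1 kept their calls in all 14 alternatives. Fasn had 1149, 955 and 935 CPM in SB libraries, against 1019.95, 1022 and 1161 CPM in control libraries, and neither it nor the carboxylase Acaca (-0.18) nor the elongase Elovl6 (-0.09) was called. The 5 acetyl-CoA supply and sterol transport genes (Acat2, Acly, Acss2, Me1 and Stard4) had log2 fold changes between -0.08 and 0.11, with 0 called by edgeR or DESeq2 and 0 at an unadjusted p under 0.05.

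**Figure D2:**
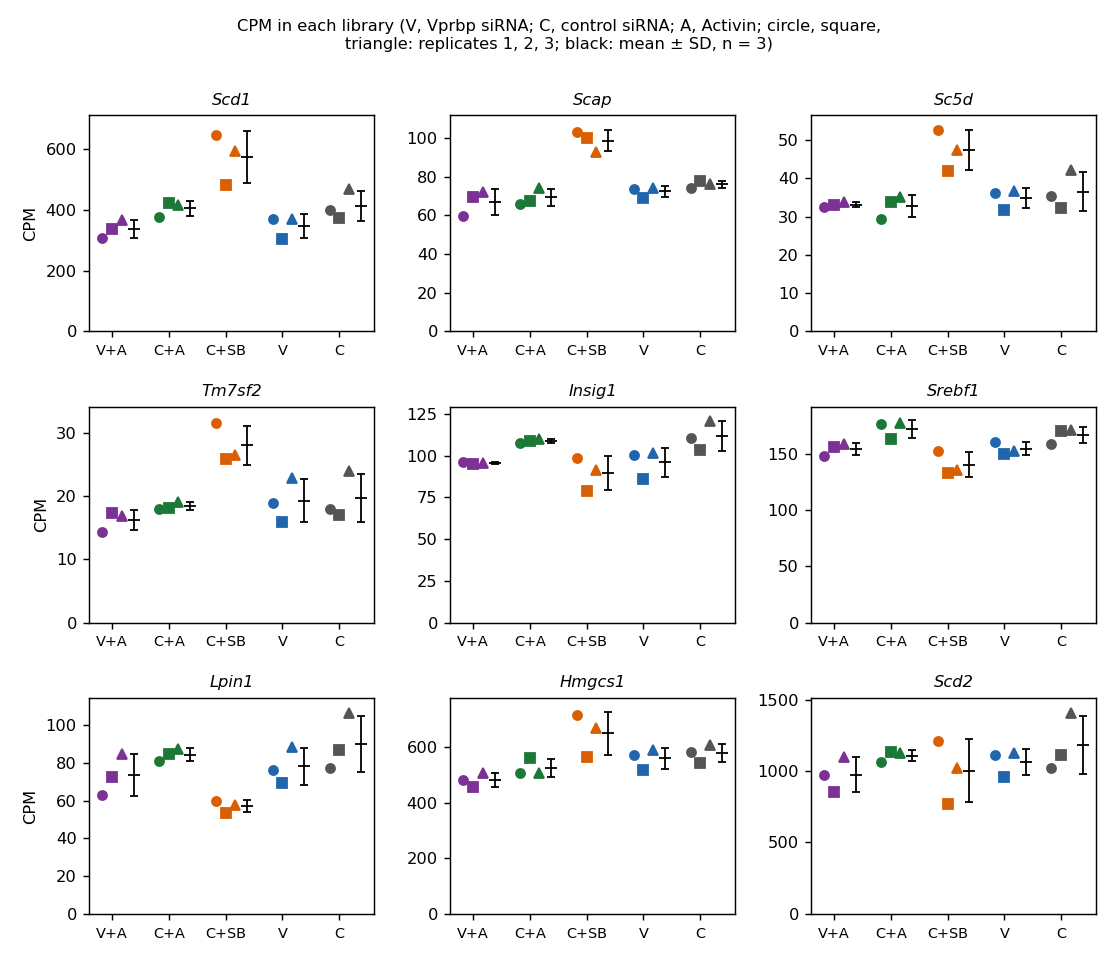
CPM of 9 genes in each library, from left to right Vprbp siRNA with Activin, control siRNA with Activin, control siRNA with SB, Vprbp siRNA and control siRNA, with the mean and SD of 3 libraries in black. Scd1, Scap and Tm7sf2 stand above both other control siRNA groups in all SB libraries, Lpin1, Insig1 and Srebf1 stand below them, and Scd2 shows no such step.

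Control siRNA replicate 3 was the library with the highest lipid gene sum in its group. Without it and the 2 other libraries that lay apart, 11 of the 35 genes were called in the SB comparison, 7 higher and 4 lower. Of all 14730 genes tested 29.2% were called, 14.9% higher and 14.4% lower. The share of called genes was again near that of the transcriptome. All 7 of the first set were among the 11, and Dhcr7, the reductase that completes cholesterol, Fads1, a desaturase of polyunsaturated fatty acids, Sqle and, among the falls, Idi1 joined. The median log2 fold change of the 35 genes was then 0.07, beside -0.0010 over all genes. Marker genes of cell identity moved with SB too. In the fit of all 15 libraries, 11.2% of all genes were called higher and 11.3% lower. Pou5f1 was at 364 ± 27.9 CPM in SB libraries and 700.2 ± 36.1 CPM in control libraries, and 6 of 7 pluripotency genes fell, their sum being 2143 to 2457 CPM against 3402 to 3978 CPM. Of 7 tested trophoblast markers 4 rose, with sums of 283 to 334 CPM in SB libraries and 187 to 211 CPM in control libraries. Of 7 neuroectoderm markers 2 rose and 1 fell (258 to 283 CPM with SB, 253 to 346 CPM without), of 6 fibroblast markers 2 fell (41.4 to 46.7 CPM with SB, 57.3 to 76.4 CPM without), and of 8 extraembryonic endoderm markers 1 rose (98.6 to 113 CPM with SB, 86.9 to 93.4 CPM without). Afp, the yolk sac marker, was at 0 in all SB and control libraries. None of 8 cycling genes was called by edgeR or DESeq2, with 1 at an unadjusted p under 0.05, and their sums overlapped. In such bulk RNA a change in the share of a cell type and a change in RNA per cell cannot be told apart, and the part of these markers in the lipid gene values was not tested.

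Setting 1 gene over another within a library takes out what both share with that library, although pairs chosen after their values were seen are only a description. The ratio of Insig1 to Hmgcs1 CPM was 0.138, 0.140 and 0.137 in SB libraries and 0.190, 0.191 and 0.200 in control siRNA libraries. The 3 SB values lay close together, although SB replicate 2 was the lowest of the 3 for Insig1 and for Hmgcs1 taken singly. The ratio of Scd1 to Scd2 CPM was 0.535, 0.623 and 0.582 in SB libraries and 0.390, 0.336 and 0.333 in control libraries. The ratio of Lpin1 to Hmgcs1 was 0.0840, 0.0950 and 0.0863 in SB libraries and 0.132, 0.160 and 0.176 in control libraries. In all 3 ratios the SB libraries lay outside the range of the 12 others. The ratio of Srebf1 to Srebf2, at 0.195, 0.185 and 0.186 in SB libraries and 0.231, 0.248 and 0.184 in control libraries, overlapped.

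**Figure D3:**
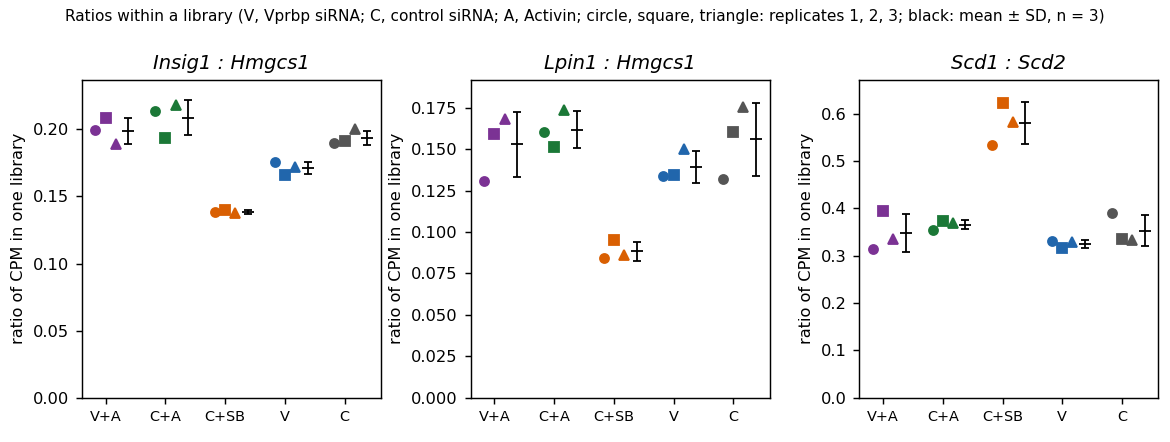
Ratio of the CPM of 2 genes within each library for Insig1 over Hmgcs1, Lpin1 over Hmgcs1 and Scd1 over Scd2, with groups in the same order as in the plot of CPM and the mean and SD of 3 libraries in black. The SB libraries are lowest in the first 2 panels and highest in the third, with no overlap with any other group.

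Activin against untreated control siRNA cells called none of the 35 genes in edgeR or DESeq2, where 4.83% of all genes were called (2.95% higher, 1.88% lower), and 3 had an unadjusted p under 0.05 in edgeR. The median log2 fold change was -0.09, beside -0.0054 over all genes, and 27 of 35 were below 0. It was 0.02 without control siRNA replicate 3, so 1 library set its direction. The Activin libraries lay above all untreated ones for 2 of the 35 genes and below all for 7, against 14% and 13.6% of all genes. Hsd17b7 had 23.3, 28.4 and 23.4 CPM with Activin, against 28.6, 31.1 and 37.3 CPM without. Those libraries did not overlap, and the log2 fold change of -0.37 ± 0.13 (SE, edgeR adjusted p = 0.11) was the largest of the 35. Nsdhl, a dehydrogenase in the same demethylation (-0.19), and Mvk, mevalonate kinase (-0.20), were the other two at an unadjusted p under 0.05. Insig1 had 108, 109 and 110.3 CPM with Activin, against 111, 104 and 121 CPM without, and Scd1 378, 422 and 415 CPM with Activin, against 398, 373 and 469 CPM without. Both pairs of ranges overlapped. Srebf1 had 177, 163 and 177 CPM with Activin, Srebf2 708, 695 and 697, Fasn 1034, 1058 and 1062, and Scd2 1064, 1129.8 and 1128, each overlapping its untreated control range.

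Activin against SB, both with control siRNA, called 14 of the 35 genes, 4 higher (11.4%) and 10 lower (28.6%). Of all genes 38% were called, 19% in each direction. The comparison shares its SB libraries with that of SB against untreated cells. The Activin libraries lay above all SB libraries for 5 of the 35 genes and below all for 9, against 27.2% and 27.6% of all genes. Of the 8 enzymes after lanosterol 5 were lower with Activin and none higher. Hsd17b7 had 23.3, 28.4 and 23.4 CPM with Activin, against 45.0, 30.7 and 37.8 CPM with SB, a log2 fold change of -0.60 ± 0.13 (SE, edgeR adjusted p = 0.0013). Sc5d had 29.4, 33.8 and 35.02 CPM with Activin, against 52.5, 42.0 and 47.5 CPM with SB, a log2 fold change of -0.53 ± 0.10 (SE, edgeR adjusted p = 0.00041). Neither gene's groups overlapped. Tm7sf2 (-0.60), Nsdhl (-0.29) and the sterol isomerase Ebp (-0.27) were the other 3 lower, while Cyp51, Msmo1 and Dhcr7 were not called by edgeR. DESeq2 also called 5 of the 8 lower, without Ebp and with a gene among Cyp51, Msmo1 and Dhcr7. Earlier in the pathway Hmgcs1 had 505, 561 and 505 CPM with Activin, against 715, 565 and 667 CPM with SB, a log2 fold change of -0.31 ± 0.08 (SE, edgeR adjusted p = 0.0038). Its highest Activin value lay just under its lowest SB value. Mvk had 35.4, 35.5 and 42.8 CPM with Activin, against 47.9, 41.4 and 50.1 CPM with SB, and was lower with 1 Activin library inside the SB range (-0.29 ± 0.09 (SE, edgeR adjusted p = 0.016)). Sqle had 175, 179 and 183 CPM with Activin, against 231, 187 and 211 CPM with SB, and was lower (-0.23 ± 0.07 (SE, edgeR adjusted p = 0.019)). Idi1 was higher with Activin, at 5.43, 5.60 and 5.02 CPM against 4.58, 3.54 and 3.29 CPM with SB (0.49 ± 0.18 (SE, edgeR adjusted p = 0.037)), the only called enzyme gene of cholesterol synthesis in that direction.

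The regulators again split in this comparison. Scap had 66.0, 67.3 and 74.3 CPM with Activin, against 103, 100.2 and 92.6 CPM with SB, and was lower at a log2 fold change of -0.51 ± 0.08 (SE, edgeR adjusted p = 2.2e-05), the smallest p among the 35. Srebf1 had 177, 163 and 177 CPM with Activin, against 153, 133 and 136 CPM with SB, and was higher (0.30 ± 0.06 (SE, edgeR adjusted p = 0.0011)). Insig1 had 108, 109 and 110.3 CPM with Activin, against 98.7, 78.9 and 91.6 CPM with SB, and was higher (0.28 ± 0.08 (SE, edgeR adjusted p = 0.0093)). Srebf2 (-0.09) and Insig2 (-0.03) were not called. Of the remaining genes, Scd1 was lower with Activin (-0.50 ± 0.11 (SE, edgeR adjusted p = 0.0022)) and Lpin1 higher (0.56 ± 0.12 (SE, edgeR adjusted p = 0.0011)), without overlap for either. The acetyl-CoA suppliers, Acaca, Fasn, Elovl6, Scd2, Fads1 and Fads2 were not called by edgeR, and DESeq2 called 1 of them, Acly, higher with Activin (0.13, adjusted p = 0.023). Leaving out replicate 1 of control siRNA with Activin, 9 of the 14 were called (3 higher, 6 lower). The calls of Hmgcs1, Hsd17b7, Sc5d, Tm7sf2, Scap, Srebf1, Scd1 and Lpin1 held in all 14 alternatives, and those of Ebp and Idi1 were each lost in 8 of 14. In the 6 fits that left out 1 library the call of Mvk was lost in 4, that of Nsdhl in 3, that of Sqle in 2 and that of Insig1 in 1, without SB replicate 2.

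**Figure D4:**
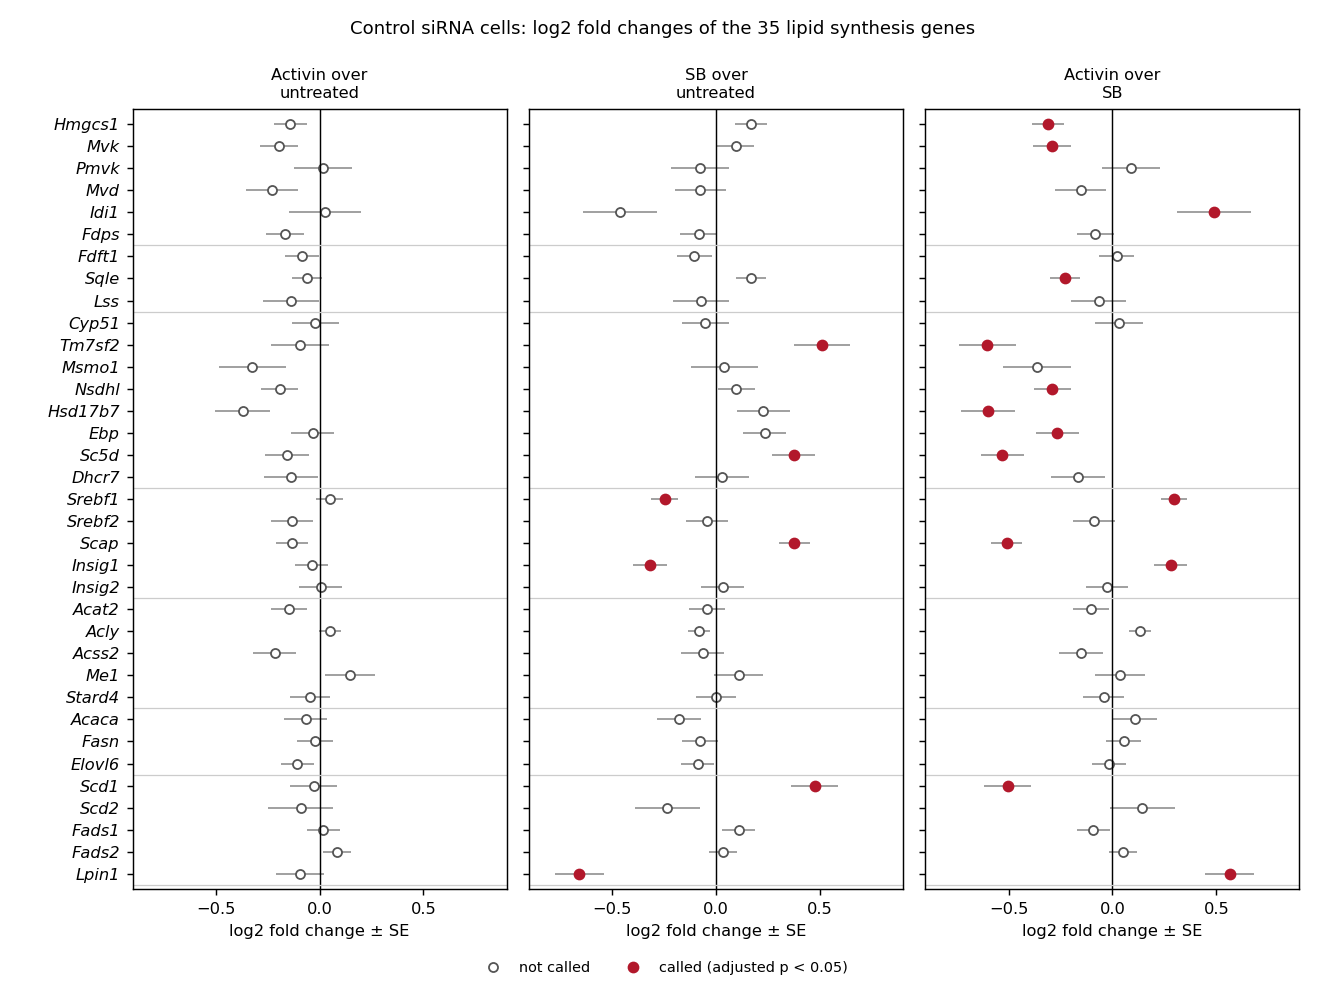
Log2 fold change with its SE for each of the 35 genes in control siRNA cells, for Activin over untreated, SB over untreated and Activin over SB, ordered by role with grey lines between roles. Filled red points passed the edgeR test at an adjusted p of 0.05 over all genes. There are 0 in the first panel, 7 in the second and 14 in the third, 5 of them among the steps after lanosterol.

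Vprbp siRNA called none of the 35 genes in edgeR or DESeq2, with or without Activin, where 0.0411% of all genes were called in each case (0.0342% higher, 0.00685% lower). Without Activin 30 of 35 log2 fold changes were below 0, with a median of -0.12, beside 0.00091 over all genes, and 5 had an unadjusted p under 0.05 in edgeR. The median was -0.015 without control siRNA replicate 3. The Vprbp siRNA libraries lay below all control siRNA libraries for 5 of the 35 genes and above all for none, against 5.65% and 6.64% of all genes. With Activin 32 were below 0, with a median of -0.12 and 5 at an unadjusted p under 0.05. The Vprbp siRNA libraries with Activin lay below all control siRNA libraries with Activin for 14 of 35 genes and above all for none, against 9.04% and 8.37% of all genes. The median with Activin lay between -0.15 and -0.096 when each of the 6 libraries was left out in turn. Leaving out the 3 libraries that lay apart, edgeR called more of all genes. The share of 14730 genes tested was then 0.516% in the comparison without Activin and 1.39% in that with Activin.

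The smallest p in both settings belonged to Acss2 (chromosome 2, 155518043 to 155562743). It had 24.2, 27.9 and 25.4 CPM with Vprbp siRNA and Activin, against 37.5, 34.8 and 30.1 CPM with control siRNA and Activin. Without Activin it had 32.4, 29.1 and 34.002 CPM with Vprbp siRNA, against 38.9, 37.8 and 42.1 CPM with control siRNA. The knockdown libraries lay below their controls in both settings. The log2 fold change was -0.40 ± 0.11 (SE, edgeR adjusted p = 0.19) with Activin and -0.31 ± 0.10 (SE, edgeR adjusted p = 0.46) without. Averaged over both settings Acss2 was the 1 called member, lower by 21.9% at a log2 fold change of -0.36 ± 0.07 (SE, edgeR adjusted p = 0.03), where 0.938% of all genes were called, 0.664% higher and 0.274% lower. That call was lost in 6 of 12 fits that left out 1 library (without replicate 1 or 2 of Vprbp siRNA, replicate 1 or 2 of control siRNA with Activin, replicate 1 of Vprbp siRNA with Activin, or replicate 3 of control siRNA, largest adjusted p 0.10). Averaged over Activin, 33 of the 35 log2 fold changes were below 0, with a median of -0.12, beside 0.00037 over all genes. The comparison without Activin, whose median shrank without control siRNA replicate 3, enters this average. Leaving out the 3 libraries that lay apart, 3.22% of all genes were called in that average.

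Insig1 and Scd1 came next. Insig1 had 96.4, 94.9 and 95.5 CPM with Vprbp siRNA and Activin, against 108, 109 and 110.3 CPM with control siRNA and Activin, and 100.5, 86.1 and 101 CPM with Vprbp siRNA, against 111, 104 and 121 CPM with control siRNA. The groups did not overlap in either setting, and the averaged log2 fold change was -0.20 ± 0.06 (SE, edgeR adjusted p = 0.091). Insig1 was called with the replicate number as a block (edgeR adjusted p = 0.033) and by DESeq2 (adjusted p = 0.0497). Scd1 had 307, 335 and 368 CPM with Vprbp siRNA and Activin, against 378, 422 and 415 CPM with control siRNA and Activin. Without Activin it had 369, 303 and 369.9 CPM with Vprbp siRNA, against 398, 373 and 469 CPM with control siRNA, again without overlap, and its averaged log2 fold change was -0.26 ± 0.08 (SE, edgeR adjusted p = 0.14). Scd1 was called by DESeq2 (adjusted p = 0.0486) and not with the block (edgeR adjusted p = 0.055). The regulators Srebf1 (-0.13) and Srebf2 (-0.13), Hmgcs1 (-0.08), Sqle (-0.04), Scd2 (-0.17) and Fasn (-0.01) were not called. Without Activin the deviations of control and Vprbp siRNA libraries with the same number correlated at 0.12, 0.20 and 0.37. The labels give no pairing, and the largest value is that of number 3, both libraries of which lay apart. A block taken from the same data cannot show that the libraries were paired, so its calls are a description only. With the number as a block in a fit of the 6 control and Vprbp siRNA libraries without Activin, 3 of the 35 genes were lower: Acss2 (-0.32, edgeR adjusted p = 0.037), Dhcr7 (-0.27, adjusted p = 0.038) and Scd1 (-0.25, adjusted p = 0.020), among 333 genes called in all. The same block in the fit of all 15 libraries called none of the 35 without Activin.

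**Figure D5:**
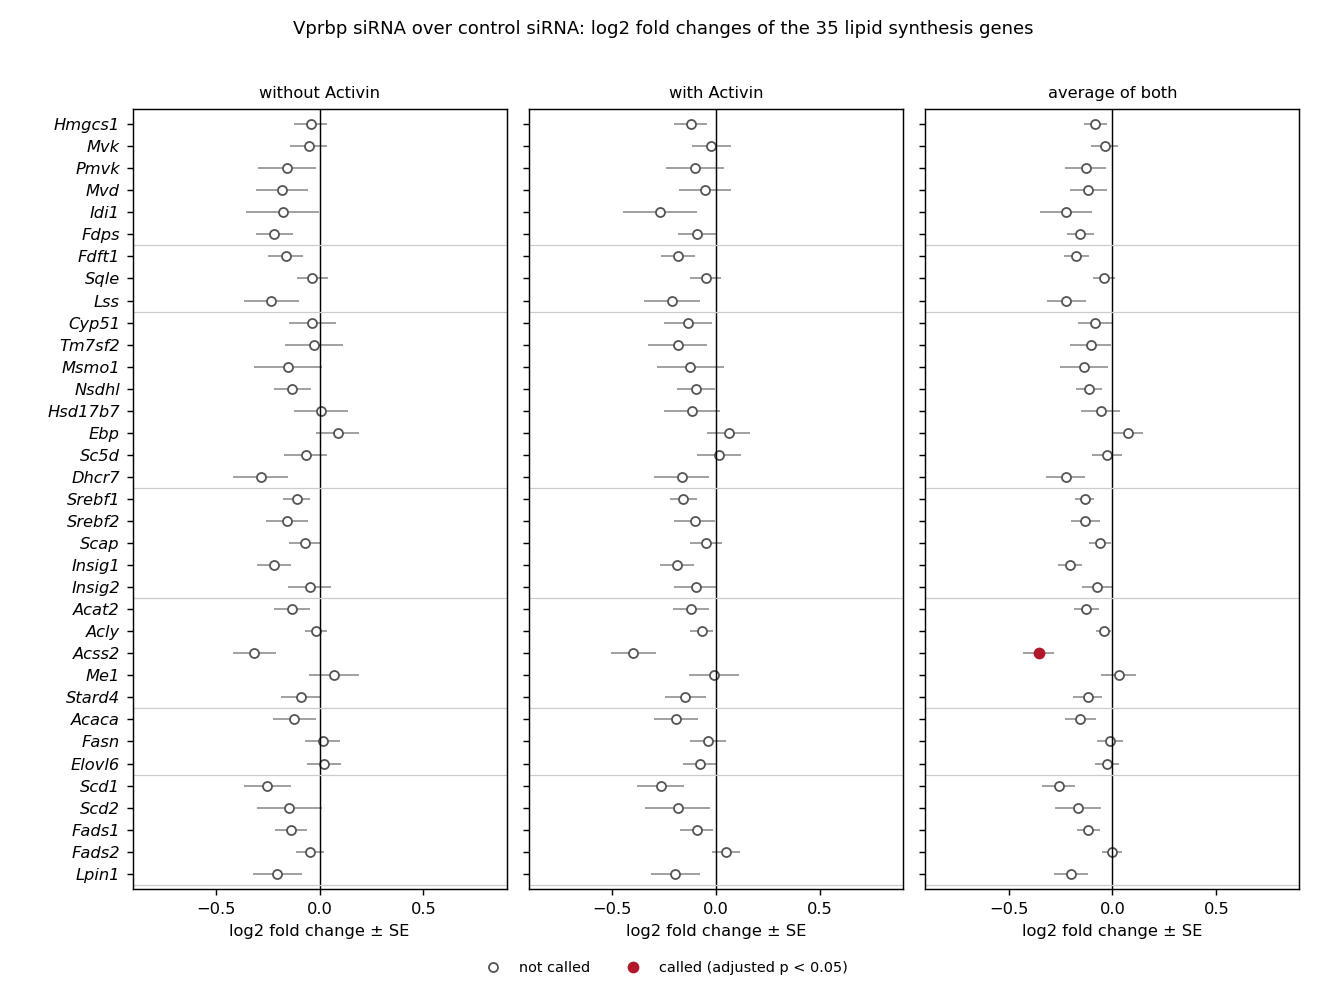
Log2 fold change with its SE for each of the 35 genes, Vprbp siRNA over control siRNA, without Activin, with Activin and averaged over both, on the scale and in the order of the plot of Activin and SB. Most points lie left of 0, with 30, 32 and 33 of 35 below it, and Acss2 in the averaged panel is the 1 filled point. The median of the first panel shrank without control siRNA replicate 3, which also enters the averaged panel.

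Activin in Vprbp siRNA cells called 1 of the 35 genes, Hsd17b7, which was lower, where 6.12% of all genes were called, 3.65% higher and 2.47% lower. It had 22.1, 20.7 and 26.1 CPM with Vprbp siRNA and Activin, against 32.7, 31.2 and 33.3 CPM with Vprbp siRNA alone. All 3 Activin libraries lay below the others, and the log2 fold change was -0.50 ± 0.13 (SE, edgeR adjusted p = 0.03). Its call was lost without the 3 libraries that lay apart, and in 4 of 6 fits that left out 1 library (without replicate 1 or 3 of Vprbp siRNA, or replicate 1 or 2 of Vprbp siRNA with Activin). Hmgcs1 had 482, 456 and 505 CPM with Vprbp siRNA and Activin, against 572, 518 and 591 CPM with Vprbp siRNA alone, without overlap, and was not called (-0.22 ± 0.08 (SE, edgeR adjusted p = 0.11)). The median over the 35 genes was -0.09, with 30 below 0. The Activin libraries lay below all others for 6 genes and above for 1, against 10.2% and 11.2% of all genes. The Activin responses with Vprbp siRNA and with control siRNA differed for 0 of 14600 genes in edgeR, 0 of the 35 had an unadjusted p under 0.05 there, and DESeq2 called 0 of the 35.

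Other genes of lipid handling were followed from 3 lists. With SB 11.2% of all genes were called higher and 11.3% lower. Of 14 SREBP processing and branch genes, SB raised 2 (14.3%) and lowered none. Mbtps2, the protease that releases SREBPs, was 1 of those raised (0.21 ± 0.07 (SE, edgeR adjusted p = 0.03)). Of 7 sterol efflux and LXR genes, SB raised 3 (42.9%) and lowered 1 (14.3%). The sterol exporter Abcg1 fell to 16.2 ± 2.60 CPM in SB libraries, against 30.5 ± 5.46 CPM in control libraries (-0.92 ± 0.14 (SE, edgeR adjusted p = 0.00014)). The nuclear receptor gene Nr1h3 rose but was low, at 1.71 ± 0.418 CPM with SB and 0.797 ± 0.293 CPM without (1.10 ± 0.38 (SE, edgeR adjusted p = 0.042)). The esterifying enzyme Soat1 (0.24) and the ubiquitin ligase Mylip (0.47) also rose. The SB calls of Mbtps2, Soat1 and Nr1h3 were each lost in 4 and that of Mylip in 5 of the 6 fits that left out 1 library. Those of Mbtps2 and Mylip went too, each at an adjusted p of 0.061, once the 3 libraries that lay apart were left out. Of 25 other fatty acid and glycerolipid genes, SB raised 5 (20%) and lowered 3 (12%). Acacb, the mitochondrial acetyl-CoA carboxylase, was at 36.6 ± 1.37 CPM with SB and 53.2 ± 1.93 CPM without, and fell (-0.54 ± 0.07 (SE, edgeR adjusted p = 1.4e-05)), as did Hacd2, a dehydratase of fatty acid elongation (-0.81 ± 0.14 (SE, edgeR adjusted p = 0.0006)). The desaturase relative Fads3 rose to 9.00 ± 1.47 CPM with SB, against 4.64 ± 0.923 CPM without (0.96 ± 0.18 (SE, edgeR adjusted p = 0.00058)), and the acyl-CoA synthetase Acsl4 rose (0.34). The medians of the 3 lists were 0.03, -0.03 and 0.06, beside -0.0048 over all genes.

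Activin with control siRNA raised Abcg1 to 44.7 ± 5.45 CPM, against 30.5 ± 5.46 CPM untreated (0.55 ± 0.14 (SE, edgeR adjusted p = 0.027)), the 1 call among the 7 efflux and LXR genes. Among the 25 fatty acid genes it raised Acacb (0.31) and Acsl4 (0.22) and lowered Fads3 (-0.74), and it called none of the 14 SREBP processing genes, 2 of which had an unadjusted p under 0.05 in edgeR and 1 of which DESeq2 called lower. Of all genes 2.95% were called higher and 1.88% lower in that comparison. Activin with Vprbp siRNA raised Abcg1 (0.67) and Acacb (0.33), and no other gene of the 3 lists was called there by edgeR. Of all genes 3.65% were called higher and 2.47% lower there. The Activin and SB comparisons in control siRNA cells share their untreated libraries. In the 6 fits of Activin with control siRNA that left out 1 library the call of Abcg1 was lost in 3 (without Activin replicate 2 or 3 or untreated control replicate 3), that of Acacb in 2 (without replicate 2 of either group), that of Fads3 in 5 and that of Acsl4 in 6. Those of Abcg1 and Fads3 went too, at adjusted p = 0.053 and 0.13, once the 3 libraries that lay apart were left out. Against SB, Activin raised 0, 1 and 4 and lowered 4, 1 and 6 genes of the 3 lists, with Abcg1 at 1.47, Acacb at 0.85, Hacd2 at 1.18 and Fads3 at -1.70. Those are 0%, 14.3% and 16% raised and 28.6%, 14.3% and 24% lowered, beside 19% of all genes in each direction. Vprbp siRNA called none of the genes of these lists in edgeR or DESeq2 in either setting, with 3 at an unadjusted p under 0.05 in edgeR without Activin and 3 with it. Of all genes edgeR called 0.0411% in each setting.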

How the data were processed

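RNA of 15 libraries in 5 groups of 3 was sequenced. The authors deposited 1 table of fragment counts per gene symbol, without normalization. Per the submitters' processing notes, HTSeq 0.6.1p1 and the build mm10 were used. Aligner, annotation and strand use are not given in the sources used, so reads of overlapping and antisense genes cannot be told apart. Of 24456 rows, 5 HTSeq tallies were left out, and the counts assigned to genes were 55.6% to 60.4% of fragments. Groups and replicate numbers came from the sample titles, and columns were matched through the sample descriptions. The floor of 3 counts behind a count of 0 covers counting error only.

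The 35 genes and all lists were chosen with earlier results of these data known. Counts were tested with edgeR 4.0.16 (robust quasi-likelihood, TMM factors of 0.985 to 1.02, filterByExpr at a minimum count of 10, 14600 of 24451 genes kept) in R 4.3.3, in 1 fit of all 15 libraries with 1 mean per group, adjusted by Benjamini-Hochberg over all genes at 0.05. A gene rose, fell or was called only past that threshold. CPM are counts over TMM-scaled library totals, and SE is that of the log2 fold change. Values in every library are given for Insig1, Srebf1, Srebf2, Hmgcs1, Sqle, Fasn, Scd1 and Scd2, for up to 2 called genes per role and comparison with the smallest p, and for Acss2, Idi1 and some values of genes not called, which were added after their values were seen. Of other lists up to 4 called genes with the smallest p are named. One called gene of the SREBP processing list is not reported here by name. All replicate pairs differed beyond sampling noise (chi-square per degree of freedom 2.81 to 16.7). The biological coefficient of variation was 8.76%.

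Alternatives were RLE factors, library totals, no filter, a minimum of 1 CPM in 3 or more libraries, the replicate number as a block, DESeq2 1.42.0, fitting the compared groups alone and leaving out each library. Leaving out the 3 libraries that lay apart, and the block with only the libraries compared, were added after seeing the data. As a check of the replicate numbers, deviations from the group means were correlated between libraries with the same number. They gave 0.12, 0.20 and 0.37 between Vprbp siRNA and control siRNA without Activin, and no other compared pair passed 0.1 at all 3 numbers. The number was therefore used as a block there, from the data alone. The labels give no pairing, and both of these libraries with number 3 lay apart. Simulated counts with the SB design (14436 genes, 50 changed at each fold) gave back 6%, 22%, 66% and 84% of genes changed 1.2-, 1.3-, 1.5- and 2-fold. Of 94 calls 5 were false. Gene positions and promoters come from RefSeq and exon lengths from GENCODE M21, all on GRCm38, the assembly also called mm10.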

Additional observations from a re-analysis of the deposited data

How the results depend on the processing

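Simulated counts with the SB design, at 3 libraries a group, gave back 6% of genes changed 1.2-fold. They held 50 changed genes at each fold among 14436, while 22.6% of all genes were called in the real SB comparison. The share given back in the real comparisons was not tested. A gene not called may still differ. For the 35 genes together, RLE factors, library totals, both filters and the fit of only the libraries compared kept every count of called genes within 1.5 times, and no called gene changed sign under any alternative. The number called in the SB comparison was 11 without the 3 libraries that lay apart, and 5 to 9 when 1 library was left out. For Activin against SB it was 9 to 14 when 1 library was left out. For Activin with Vprbp siRNA it was 0 without the 3 libraries that lay apart and 0 to 2 with 1 library left out. For Vprbp siRNA averaged over Activin it was 2 with the replicate block (Acss2 and Insig1), 3 with DESeq2 (Acss2, Insig1 and Scd1) and 0 to 1 with 1 library left out. For Vprbp siRNA without Activin it was 3 with the replicate block and only the libraries compared, a block taken from these same data. The replicate block in the fit of all libraries moved no other count of the 35 genes by over 1.5 times (16 for Activin against SB, 7 for SB, 1 for Activin with Vprbp siRNA). Over all genes the block called 18 genes for Vprbp siRNA without Activin, against 6 without the block, 51 against 6 with Activin and 273 against 137 averaged. DESeq2 called 31, 76 and 343 genes in the same comparisons. Leaving out the 3 libraries that lay apart, edgeR called 76, 205 and 475 there. The causes were not tested.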
